A study of Mus musculus with 6 samples.

Results

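The 10 genes described here were 6 matrix metalloproteinases (Mmp9, Mmp14, Mmp13, Mmp8, Mmp12 and Mmp19), the membrane-bound metalloproteinase Adam8 and 3 tissue inhibitors of metalloproteinases (Timp1, Timp2 and Timp3). They were taken by symbol from a count table of 39179 genes, and all 10 were found once. The list was chosen by a reading of this same comparison, with the 6 libraries' counts and fold changes known, so the members' levels, fold changes and adjusted p-values are given below as a description and not as independent evidence. Of the 10 genes, 9 had counts and passed the filter on low counts. Timp3 had none.

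The study profiled tumor-associated macrophages (TAMs) as part of its work on what natural killer cells contribute to early changes in tumors with and without cyclooxygenases. The enzymes made from Ptgs1 and Ptgs2 are the cyclooxygenases, which make the precursor of prostaglandin E2. TAMs came from C57BL/6 hosts aged 8 weeks that carried either wild-type tumor cells (Ptgs-competent, 3 libraries) or tumor cells lacking Ptgs1 and Ptgs2 (Ptgs-deficient, 3 libraries), so the deletion was in the tumor cells and not in the macrophages. The labels name the tumor cells by genotype only. The study's methods describe CRISPR/Cas9-edited lines lacking both genes, namely a breast cancer line and a melanoma line driven by mutant Braf. The melanoma line came from C57BL/6 mice, the strain of these hosts. The sort kept live leukocytes (CD45+) positive for the myeloid marker CD11b and the macrophage marker F4/80, and removed natural killer cells (NK1.1), neutrophils (Ly6G) and cells with high Ly6C. Each library came from a pool of 10 tumors, so the spread between libraries is a spread between tumor pools and not between single mice. The interval between injection and sorting is not given in the sources used here for these samples.

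Matrix metalloproteinases are zinc-dependent proteases that cut collagens, elastin and other matrix proteins, and also release or inactivate growth factors and chemokines. Most are secreted as inactive proenzymes, and the TIMPs block the active enzymes by filling the catalytic cleft. Macrophages of tumors and wounds are a known source of several of these enzymes. TIMP-2 also takes part in activation, since it bridges MMP-14 and pro-MMP-2 on the cell surface.

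The libraries held 4431184 to 8760679 counts. Each was made from 800 pg of RNA with a 3′-end protocol, in which a transcript gives tags near its 3′ end whatever its length, so CPM values (counts divided by library size, scaled by the trimmed mean of M values, TMM) were compared between genes without division by length. All 8 macrophage markers (among them Adgre1, Csf1r, Cd68 and Lyz2) were detected and summed to 10229 to 14124 CPM in 5 libraries but to 3858 CPM in Ptgs-competent replicate 3, which therefore stood apart. That library also had the highest sum of 8 fibroblast markers, 349 CPM, against 157 and 159 CPM in the other Ptgs-competent libraries and 15.9 to 51.2 CPM in the Ptgs-deficient ones. The 12 neutrophil markers summed to 545 to 709 CPM in Ptgs-competent and 439 to 532 CPM in Ptgs-deficient libraries, without overlap. By flow cytometry, the study found more neutrophils in tumors with cyclooxygenases. Of the 12 markers, 8 had counts. Ly6g, Elane, Mpo and Stfa2 were at 0 in all 6 libraries, while Cxcr2 had counts in all 6, at up to 105.7 CPM. In Ptgs-deficient libraries S100a8 and S100a9 were lower and Retnlg higher without overlap, though none of the list was called by the quasi-likelihood test. The 6 endothelial markers summed to 104, 197 and 92.9 CPM in Ptgs-competent and 71.9, 37.3 and 39.9 CPM in Ptgs-deficient libraries, without overlap. Among them Cdh5, Tek and Emcn were at 0 in all 6, and Pecam1 was at 126 ± 61.5 against 38.8 ± 25.0 CPM. Vwf went the other way, with 3, 0 and 0 counts against 37, 126 and 2, and Kdr was mixed, with 95, 0 and 0 counts against 0, 58 and 18. Of 8 melanoma markers, 6 were at 0 in every library. The others, which macrophages also express, were Mitf, with 12, 0 and 3 counts against 58, 372 and 88 and no overlap, and Gpnmb, with counts in all 6 and means of 71.3 and 41.7 CPM. Summed monocyte markers were 258 to 527 CPM in Ptgs-competent and 1452 to 2370 CPM in Ptgs-deficient libraries. Within that list Plac8 was called higher (log2 change 3.20, quasi-likelihood adjusted p = 0.0230), while Vcan was lower without overlap, at 26.6, 85.2 and 31.0 CPM against 0, 17.1 and 0 CPM. The part of these differences in the results below was not tested, and in bulk RNA fewer cells of a type cannot be told apart from less RNA per cell. Without molecular identifiers, PCR copies are counted as separate reads, so a floor of 3 counts covers counting error only.

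Of the proteinase genes, 3 lie in a cluster on chromosome 9 (GRCm38), where 9 Mmp genes span 427072 bases. In order along the chromosome, Mmp13 (chr9:7272514-7283331), Mmp12 (chr9:7344381-7369499) and Mmp8 (chr9:7558456-7568485) are all on the plus strand. Within the cluster, the only other Mmp gene with any count was Mmp27, with 113 counts over the 6 libraries. Fitted log2 changes of these neighbours, described below, were -3.01 for Mmp13, 0.62 for Mmp12 and -3.03 for Mmp8, and none passed the test. Their 250 bases upstream of a RefSeq start (GRCm38.p6, plus strand, 5′ to 3′) are shown because the 3 genes share 1 cluster. Capitals mark matches to the AP-1 motif TGACTCA or to TATAAA, each searched on both strands.
Mmp13 (chr9:7272264-7272513): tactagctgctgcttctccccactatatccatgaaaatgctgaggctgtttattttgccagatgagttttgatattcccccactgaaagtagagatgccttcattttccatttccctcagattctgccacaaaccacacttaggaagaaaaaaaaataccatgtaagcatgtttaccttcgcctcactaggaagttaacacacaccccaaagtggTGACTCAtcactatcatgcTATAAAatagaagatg
Mmp12, downstream start (chr9:7347124-7347373): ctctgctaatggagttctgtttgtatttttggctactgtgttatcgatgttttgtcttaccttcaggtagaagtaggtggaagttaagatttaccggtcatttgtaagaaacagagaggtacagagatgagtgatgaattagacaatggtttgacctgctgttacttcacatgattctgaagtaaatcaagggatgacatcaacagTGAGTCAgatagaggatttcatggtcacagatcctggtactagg
Mmp8 (chr9:7558179-7558428): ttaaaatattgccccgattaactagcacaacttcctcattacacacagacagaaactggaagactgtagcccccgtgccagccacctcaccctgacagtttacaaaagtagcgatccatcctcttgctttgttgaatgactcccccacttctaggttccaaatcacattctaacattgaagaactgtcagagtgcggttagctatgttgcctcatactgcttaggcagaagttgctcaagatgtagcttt
Mmp13 and the downstream Mmp12 start each held 1 AP-1 match, beginning 35 and 44 bases before the start, on the plus strand for Mmp13 and as the reverse complement for Mmp12. Mmp13 also held TATAAA, beginning 16 bases before the start. The Mmp8 stretch had no match to either. Nor had the upstream Mmp12 start (chr9:7344147-7344396), which is not shown, so the Mmp12 stretch printed is the one with a match. Over 32851 RefSeq windows of the same length, 4.46% held the AP-1 letters and 12.4% held TATAAA. The cAMP response element TGACGTCA occurred in 1.55% of windows and in none of the 9 windows found for 8 of the 10 genes. RefSeq windows for Mmp14, Timp1, Timp2, Timp3 and Adam8 had none of the 3 motifs. A match is a run of letters and not a measured binding site.

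Mmp9 encodes gelatinase B, which cuts denatured collagen and type IV collagen of basement membranes (chr2:164940780-164955850). It was the most abundant of the 6 metalloproteinase transcripts in every Ptgs-competent library and the second lowest in every Ptgs-deficient one. Ptgs-competent replicates 1, 2 and 3 held 8080, 9071 and 2219 counts, or 1288, 1489 and 478 CPM. Ptgs-deficient replicates held 57, 155 and 56 counts, or 10.4, 18.5 and 11.6 CPM. The groups did not overlap, and the lowest Ptgs-competent level was 25.9 times the highest Ptgs-deficient level. Mean levels were 1085 ± 535 and 13.5 ± 4.35 CPM (SD, n = 3), and the fitted log2 fold change was -6.32 ± 0.56 (SE), or 80.1-fold lower in TAMs of Ptgs-deficient tumors. By mean level, Mmp9 ranked 107 among all genes in Ptgs-competent TAMs and 6513 in Ptgs-deficient TAMs. The part of RNA from other cells, neutrophils among them, in the Mmp9 level was not tested.

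In edgeR's quasi-likelihood test over 8793 genes, Mmp9 had the smallest p of all (Benjamini-Hochberg adjusted p = 0.00413) and was 1 of 5 genes called lower, at an adjusted p of 0.05 or less and a log2 change of 1.5 or more. Calls in either direction took 0.216% of the genes tested (19 genes) and calls lower took 0.0569%. Since the members were picked with this contrast known, 1 called member of 9 tested is given beside those shares without a reading. Leaving out Ptgs-competent replicate 1 or Ptgs-deficient replicate 1 raised the adjusted p of Mmp9 to 0.0568 and 0.0637, with log2 changes of -6.18 and -6.13. Leaving out Ptgs-competent replicate 3, the library with few macrophage marker counts, gave -6.62 ± 0.38 (adjusted p = 0.000185). Over 13 alternative settings its adjusted p ran from 2.56e-38 to 0.0637.

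**Figure D1:**
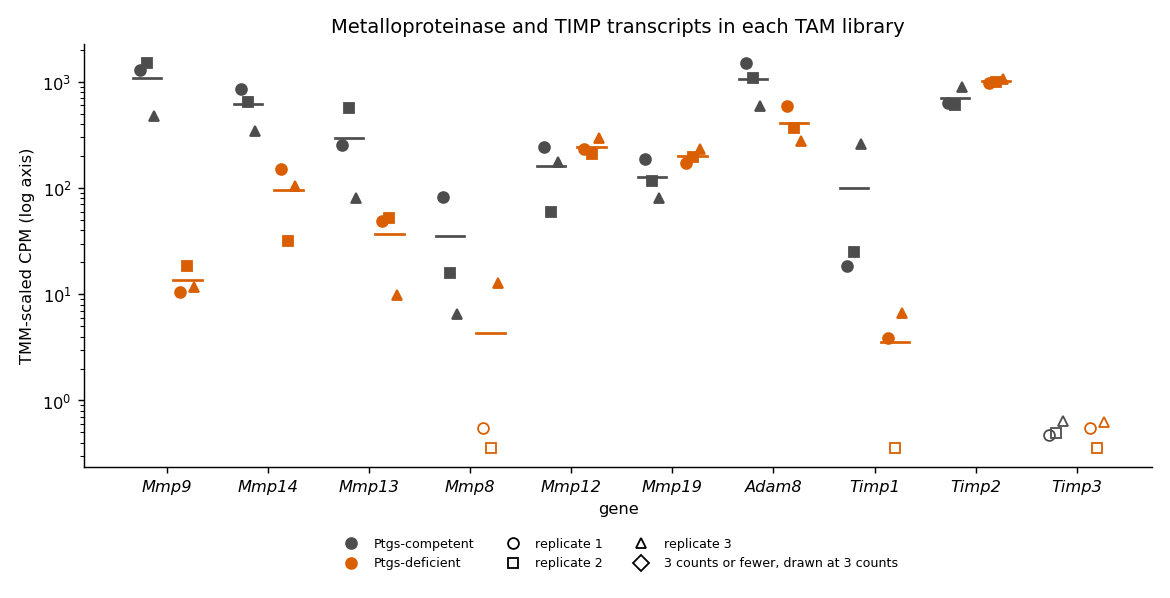
TMM-scaled CPM (log axis) of the 10 genes in each of 6 TAM libraries. Grey symbols are Ptgs-competent and orange symbols Ptgs-deficient, shape gives the replicate, bars are group means, and open symbols are libraries with 3 counts or fewer, drawn at the level of 3 counts. Mmp9, Mmp14, Mmp13 and Timp1 were lower in all 3 Ptgs-deficient libraries than in any Ptgs-competent one, and Timp2 was higher.

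Mmp14 encodes MT1-MMP, a membrane-anchored collagenase that also activates pro-MMP-2 (chr14:54431612-54445364). Its level was 849, 640 and 344 CPM in Ptgs-competent replicates 1, 2 and 3. In Ptgs-deficient replicates it was 151, 31.6 and 105 CPM. All Ptgs-deficient libraries were below all Ptgs-competent ones, with the nearest pair 2.27-fold apart. The log2 fold change was -2.67 ± 0.58 (SE), or 6.38-fold lower, and did not pass the adjusted threshold (quasi-likelihood adjusted p = 0.114). It ran from -3.32 to -2.26 over the 13 alternatives and was called in 5 of them.

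Mmp13 encodes collagenase 3, an interstitial collagenase that cuts fibrillar type I, II and III collagens. Ptgs-competent libraries held 252, 562 and 79.8 CPM, and Ptgs-deficient libraries 49.3, 51.8 and 9.93 CPM. The groups did not overlap, but the Ptgs-competent levels themselves differed 7.05-fold and the nearest pair across groups only 1.54-fold. The log2 fold change was -3.01 ± 0.80 (quasi-likelihood adjusted p = 0.208), or 8.04-fold lower, and 4 of the 13 alternatives called it. Over those alternatives it ran from -3.39 to -2.16. The smallest change came without Ptgs-competent replicate 2, where the Ptgs-competent mean was 166 CPM in place of 298 and the level 4.48-fold lower.

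Mmp8 encodes collagenase 2, best known as a neutrophil granule protease. It had 518, 97 and 30 counts in Ptgs-competent libraries, equal to 82.6, 15.9 and 6.47 CPM. In Ptgs-deficient libraries it had 0, 2 and 61 counts, equal to 0, 0.238 and 12.6 CPM. The groups overlapped, since Ptgs-deficient replicate 3 was above Ptgs-competent replicate 3, and in Ptgs-deficient TAMs that library held nearly all counts. The fitted log2 change of -3.03 ± 2.25 (quasi-likelihood adjusted p = 0.962) became -7.90 when that library was left out and -1.38 without Ptgs-competent replicate 1.

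Mmp12 and Mmp19 had positive fitted changes, neither of which passed the test. Mmp12 encodes the macrophage metalloelastase, which cuts elastin. It stood at 245, 59.6 and 174 CPM in Ptgs-competent and at 232, 207 and 297 CPM in Ptgs-deficient libraries. The groups overlapped, with Ptgs-competent replicate 2 the lowest of all 6, and the log2 change was 0.62 ± 0.50 (quasi-likelihood adjusted p = 0.997).

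Mmp19, a secreted metalloproteinase that cuts basement membrane components (chr10:128790910-128800824), stood at 187, 117 and 79.8 CPM in Ptgs-competent TAMs. In Ptgs-deficient TAMs it stood at 170, 197 and 235 CPM. Ptgs-competent replicate 1 lay within the Ptgs-deficient range, and the log2 change was 0.65 ± 0.43 (quasi-likelihood adjusted p = 0.905). The antisense neighbour Tmem198b overlaps Mmp19 and had 0 to 156 counts a library, at most 13.3% of the Mmp19 counts, and whether the counting used strand is not given in the sources used here. Both Mmp12 and Mmp19 kept a positive log2 change in all 13 alternatives, from 0.23 to 1.08 for Mmp12 and from 0.45 to 1.03 for Mmp19, without a call.

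Levels of the 6 metalloproteinase transcripts were also added up within each library. The sum was 2903, 2883 and 1163 CPM in Ptgs-competent libraries and 613, 507 and 671 CPM in Ptgs-deficient ones. Mmp9 made up 44.4%, 51.6% and 41.1% of that sum in Ptgs-competent replicates 1, 2 and 3, a narrow range that included the library with few macrophage marker counts. In Ptgs-deficient replicates it made up 1.70%, 3.64% and 1.73%. Mmp12 and Mmp19 took the larger shares there, with Mmp12 at 37.8%, 40.9% and 44.2% and Mmp19 at 27.8%, 39.0% and 35.1%, against at most 14.9% and 6.86% in Ptgs-competent libraries. The larger shares came with levels of Mmp12 and Mmp19 that overlapped between groups, while the total they were divided by was lower. Mmp14 held 22.2% to 29.6% of the sum in Ptgs-competent and 6.23% to 24.7% in Ptgs-deficient libraries. The shares describe the same counts as the levels above and were not tested.

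**Figure D2:**
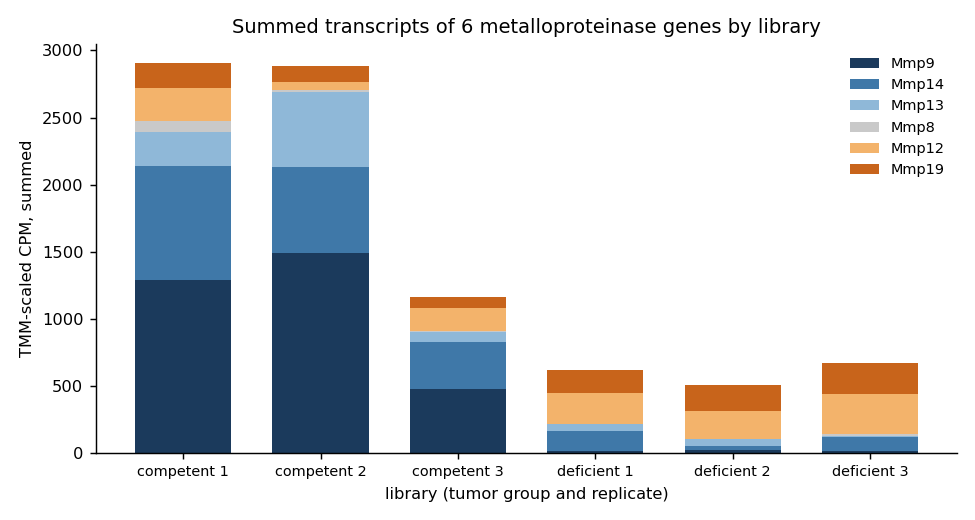
Summed TMM-scaled CPM of 6 metalloproteinase genes in each library, stacked by gene from 0. Ptgs-competent libraries reached 1163 to 2903 CPM with Mmp9 the largest segment, and Ptgs-deficient libraries 507 to 671 CPM with Mmp12 and Mmp19 the largest segments.

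Adam8 encodes a membrane-anchored metalloproteinase and disintegrin of myeloid cells, which sheds surface proteins and is not blocked by the classical TIMPs (chr7:139978932-139992562, minus strand). Its level was 1492, 1089 and 589 CPM in Ptgs-competent and 594, 365 and 277 CPM in Ptgs-deficient libraries. The groups touched at 1 point only, where Ptgs-competent replicate 3 fell just below Ptgs-deficient replicate 1. The log2 change was -1.36 ± 0.42 (SE), or 2.56-fold lower, short of the fold threshold and of the adjusted p (quasi-likelihood adjusted p = 0.298). Of the 13 alternatives, limma's voom with sample quality weights called it, at -1.61 and an adjusted p of 0.00911. Adam8 had a mean of 412 ± 164 CPM in Ptgs-deficient TAMs, a higher mean than any of the 6 metalloproteinases there. In Ptgs-competent TAMs it matched Mmp9, at 1057 ± 453 CPM against 1085 ± 535 CPM, a difference within the spread of the libraries.

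Timp1 encodes the inducible, secreted inhibitor that binds pro-MMP-9 (chrX:20870166-20874735, within the span of the opposite-strand gene Syn1). Ptgs-competent libraries had 116, 153 and 1194 counts, or 18.5, 25.1 and 257 CPM. Ptgs-deficient libraries had 21, 2 and 32 counts, or 3.83, 0.238 and 6.62 CPM. The groups did not overlap, but Ptgs-competent replicate 3 was about 10.2 times the next highest library and decided the size of the difference. That is the library with the highest fibroblast marker sum and the lowest macrophage marker sum, and the part of either in the Timp1 level was not tested. The log2 change was -4.82 ± 1.47 with all libraries (quasi-likelihood adjusted p = 0.292). Of the 13 alternatives, edgeR's likelihood ratio test (adjusted p = 0.0422) and the fit with no filter (0.00264) called it. It was -2.56 ± 2.33 without that replicate (adjusted p = 0.898), where the Ptgs-competent mean dropped from 100.3 to 21.8 CPM. Syn1 had 152 counts in Ptgs-deficient replicate 1 and 0 in the other 5 libraries.

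Timp2, the constitutive inhibitor (chr11:118301069-118355740, minus strand), had a positive fitted change. In CPM it had the smallest relative spread of the 9 genes with counts, with coefficients of variation of 21.5% and 4.52%. Its level was 633, 609 and 884 CPM in Ptgs-competent and 965, 1004 and 1056 CPM in Ptgs-deficient libraries. All Ptgs-deficient libraries were above all Ptgs-competent ones, though the nearest pair differed only 1.09-fold. Means were 709 ± 152 and 1008 ± 45.6 CPM, and the log2 change of 0.51 ± 0.29 did not pass the test (quasi-likelihood adjusted p = 0.815). Timp2 held 77.4% to 97.2% of all TIMP counts in Ptgs-competent libraries and 99.4% to 99.98% in Ptgs-deficient ones.

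Timp3, the inhibitor that binds to the matrix and also blocks several ADAM proteases, had 0 counts in all 6 libraries. A floor of 3 counts a library allows up to 0.357 to 0.647 CPM. Syn3, the opposite-strand gene whose span contains Timp3, had 0 counts as well.

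Of the 9 tested members, Mmp9, Mmp14, Mmp13 and Timp1 were lower without overlap between groups, and Timp2 was higher. Over all 8793 genes, 8.01% were lower without overlap and 11% higher. The median log2 change of the 9 members was -2.67, beside 0.02 over all genes tested. These member values were known when the list was picked, and nothing is read from them.

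**Figure D3:**
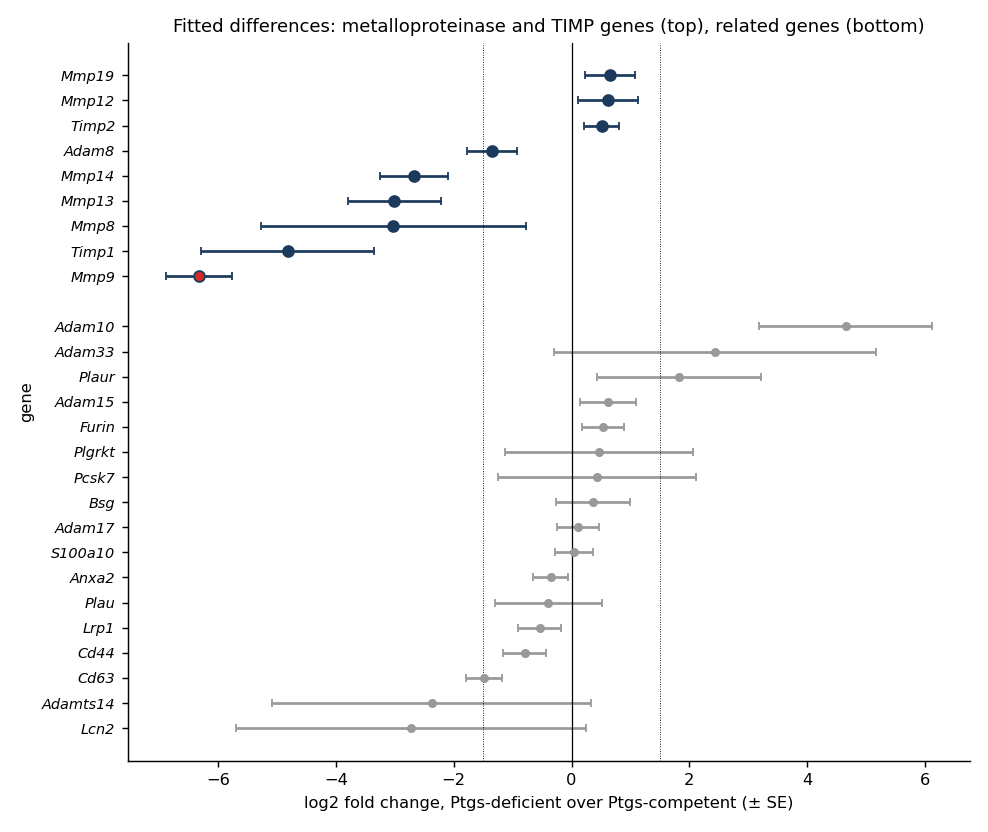
Log2 fold change, Ptgs-deficient over Ptgs-competent, with SE bars, from the quasi-likelihood fit to 3 libraries a group. Blue points are the 9 tested metalloproteinase, Adam8 and TIMP genes, with Mmp9, the called one, filled red. Grey points are 17 tested genes of related families, and dotted lines mark the log2 threshold of 1.5 in either direction. Adam9 is not drawn because all Ptgs-competent libraries had 0 counts.

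Enzyme and inhibitor transcripts were then set against each other within each library, which removes the library scaling. The 6 metalloproteinases together gave 4.46, 4.55 and 1.02 counts per TIMP count in Ptgs-competent replicates 1, 2 and 3. In Ptgs-deficient replicates they gave 0.633, 0.505 and 0.631. The lowest Ptgs-competent ratio was above the highest Ptgs-deficient ratio, and means were 3.34 ± 2.01 and 0.589 ± 0.0736 (SD, n = 3). Enzyme totals, given above, did not overlap between groups. Inhibitor totals were 651, 634 and 1141 CPM against 969, 1004 and 1063 CPM, and overlapped only through Ptgs-competent replicate 3, so both terms of the ratio differed between the groups in the other 5 libraries. In Ptgs-competent replicate 3 both terms differed from its group, with fewer enzyme and more inhibitor counts.

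Timp2 counts per Mmp14 count, the pair that forms the pro-MMP-2 activation complex, were 0.746, 0.952 and 2.57 in Ptgs-competent libraries. In Ptgs-deficient libraries they were 6.37, 31.8 and 10.1. The groups did not overlap. The gene for the third partner, Mmp2, had no count in any library. Mmp9 counts per Timp1 count were 69.7, 59.3 and 1.86 in Ptgs-competent replicates 1, 2 and 3, where replicate 3 is the library with 1194 Timp1 counts. They were 2.71 and 1.75 in Ptgs-deficient replicates 1 and 3. Ptgs-deficient replicate 2 had 155 Mmp9 counts and 2 Timp1 counts, under the floor of 3, so no ratio is given for it. Ratios of transcripts are not ratios of proteins or of activity.

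Because macrophage marker counts were low in Ptgs-competent replicate 3, the members were also expressed per 100 counts of the 8 macrophage markers, a scale chosen after the values had been seen. Lyz2 made up 65.7% to 74.8% of the marker counts, so the scale rests mainly on 1 gene. Of the 8 markers, Adgre1, Itgam and Fcgr1 were higher in Ptgs-deficient libraries without overlap. On it, Mmp9 came to 11.9, 14.4 and 12.4 in Ptgs-competent replicates 1, 2 and 3, and to 0.0962, 0.180 and 0.0820 in Ptgs-deficient replicates. The coefficient of variation of Mmp9 among Ptgs-competent libraries was 10.1% on this scale and 49.3% in CPM, while among Ptgs-deficient libraries it was 44.5% and 32.3%. Mmp14 behaved in the same way, at 7.86, 6.18 and 8.93 against 1.40, 0.309 and 0.741, with a coefficient of variation of 18.1% in place of 41.5% in Ptgs-competent and 67.3% in place of 63.0% in Ptgs-deficient libraries.

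Adam8, whose groups touched in CPM, separated on this scale, at 13.8, 10.5 and 15.3 in Ptgs-competent and 5.50, 3.57 and 1.96 in Ptgs-deficient libraries. Mmp8, which overlapped in CPM, also separated, at 0.765, 0.154 and 0.168 against 0, 0.00233 and 0.0894. Mmp13 had no overlap on either scale, here at 2.33, 5.43 and 2.07 against 0.456, 0.506 and 0.0703. In these 3 genes every Ptgs-deficient library was below every Ptgs-competent one. The marker sum of Ptgs-competent replicate 3 was the lowest, so this scale raised every gene there relative to the other libraries. The share of all genes without overlap on this scale was not computed. Timp1 and Timp2 became more uneven, since Ptgs-competent replicate 3 rose to 6.67 for Timp1 beside 0.171 and 0.243. For Timp2 it rose to 22.9 beside 5.86 and 5.88. With that library above all others, the Timp2 groups overlapped. Mmp12 and Mmp19 overlapped on both scales, and Mmp12 was nearly equal among Ptgs-deficient libraries, at 2.14, 2.03 and 2.10. Mmp9, Mmp14, Mmp13 and Timp1 were lower in the Ptgs-deficient group on either denominator in every pair of libraries. Adam8 was lower in every pair but 1 in CPM. Nothing is read from this, since the members were picked with the contrast known. The order of the Timp2 groups depended on the denominator. So did that of the Mmp12 means, at 160 and 245 CPM but 2.45 and 2.09 per 100 marker counts in Ptgs-competent and Ptgs-deficient libraries.

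**Figure D4:**
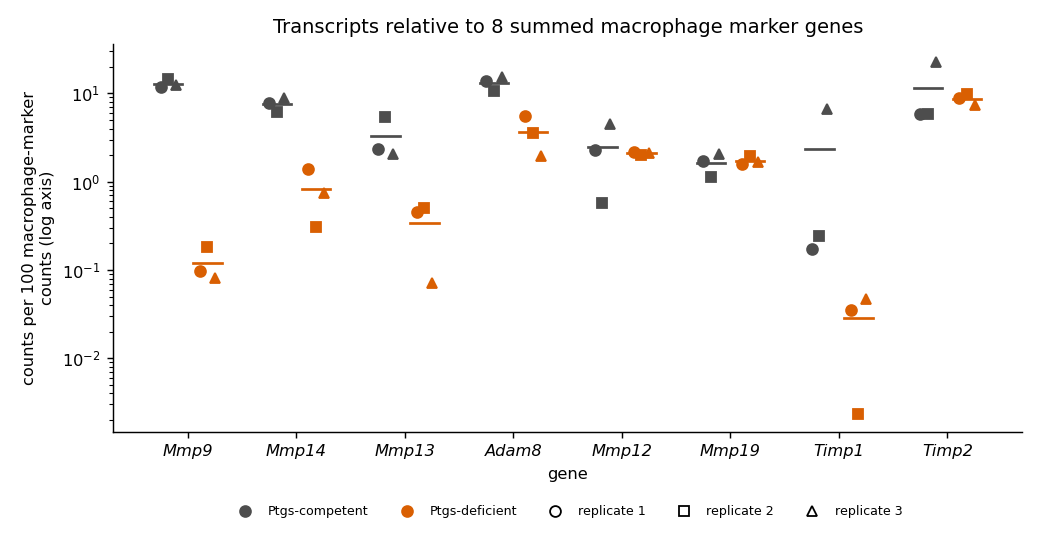
Counts of 8 genes per 100 summed counts of 8 macrophage marker genes in each library (log axis), with group means as bars, grey for Ptgs-competent and orange for Ptgs-deficient. Mmp9 lay between 11.9 and 14.4 in the 3 Ptgs-competent libraries and between 0.0820 and 0.180 in the Ptgs-deficient ones, and the triangle of Ptgs-competent replicate 3 stood apart for Timp1 and Timp2.

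Related protease genes were read from whole families and from lists of the plasminogen system and of proteins that activate, bind or clear metalloproteinases. Of 92 such genes in the table, 57 had no count in any library and 19 could be tested. None was called by edgeR's quasi-likelihood test, beside 0.216% of all genes called. An unadjusted p under 0.05 was found for 3 of the 19 and for 8.83% of all genes tested. The likelihood ratio test and the fit with no filter called 1 (Adam9), DESeq2 called 3 (Adam9, Adam10 and Cd63) and voom called 1 (Cd63). Over all genes, the likelihood ratio test called 241, DESeq2 328 and voom 123 of 8793 tested. The fit with no filter called 252 of 13368. The 19 genes had 12 positive and 7 negative log2 changes, with a median of 0.37.

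Among the other 17 Mmp genes, 14 had no count, including the gelatinase Mmp2 and the stromelysins Mmp3 and Mmp10, and none could be tested. The inhibitors Timp4, Reck, A2m and Tfpi2 had no count either. The counted ones, Mmp11, Mmp25 and Mmp27, summed to at most 20.5 CPM in a library, against at least 507 CPM for the 6 metalloproteinases described above.

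Of 9 genes for activators and partners, 7 were tested, with 3 positive and 4 negative changes and a median of -0.54. Cd63, a tetraspanin that binds TIMP-1 at the cell surface, had 1781 ± 223 CPM in Ptgs-competent and 634 ± 145 CPM in Ptgs-deficient TAMs. Its groups did not overlap, and the log2 change of -1.49 ± 0.30 had an adjusted p of 0.0967 in the quasi-likelihood test. Cd44, a docking receptor for MMP-9 on the cell surface, also did not overlap, with a log2 change of -0.80 ± 0.36 (quasi-likelihood adjusted p = 0.571). Furin, the protease that activates pro-MMP-14, had 242 ± 74.9 and 349 ± 45.2 CPM in overlapping groups. Lrp1, the receptor that clears MMP-9 and other proteases, had 777 ± 258 and 533 ± 163 CPM, also overlapping.

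Of 11 genes of the plasminogen system, which generates plasmin and through it active metalloproteinases, 6 were tested, with 4 positive and 2 negative changes and a median of 0.25. Plaur, the urokinase receptor, had 14.9 ± 15.6 CPM in Ptgs-competent and 52.6 ± 57.1 CPM in Ptgs-deficient TAMs, with overlapping groups. Anxa2, a plasminogen-binding annexin, had 1388 ± 288 and 1085 ± 95.3 CPM.

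Of the other 32 Adam genes, 5 could be tested, and all 5 had positive log2 changes where Adam8 had a negative one, beside 50.7% positive over all genes tested. Their median of 2.43 was the value of Adam33, with 101, 0 and 0 counts against 0, 295 and 252 in overlapping groups (SE 2.74). Adam9, a widely expressed sheddase, had 0 counts in all 3 Ptgs-competent libraries and 15, 965 and 192 counts in Ptgs-deficient ones. Against a floor of 3 counts a library, its Ptgs-deficient mean was at least 97.3-fold higher, though the 3 Ptgs-deficient libraries were very uneven (quasi-likelihood adjusted p = 0.174). Setting Adam9 at that bound left the median of the list at 2.43. Adam10, the sheddase of Notch and of many surface proteins, had 1, 35 and 7 counts against 455, 429 and 261, with a log2 change of 4.65 ± 1.47 (quasi-likelihood adjusted p = 0.300). Its groups did not overlap.

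Adam17, which sheds TNF, had a log2 change of 0.10, with 186 ± 29.1 and 200.1 ± 32.7 CPM, a difference well within the spread. Adam15 had 321.5 ± 198 and 494 ± 59.1 CPM, also overlapping. Of 19 Adamts genes, 8 had counts and only Adamts14 was tested, at -2.37 ± 2.71. Whether Adam8 differed from these Adam genes in its response was not tested.

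**Figure D5:**
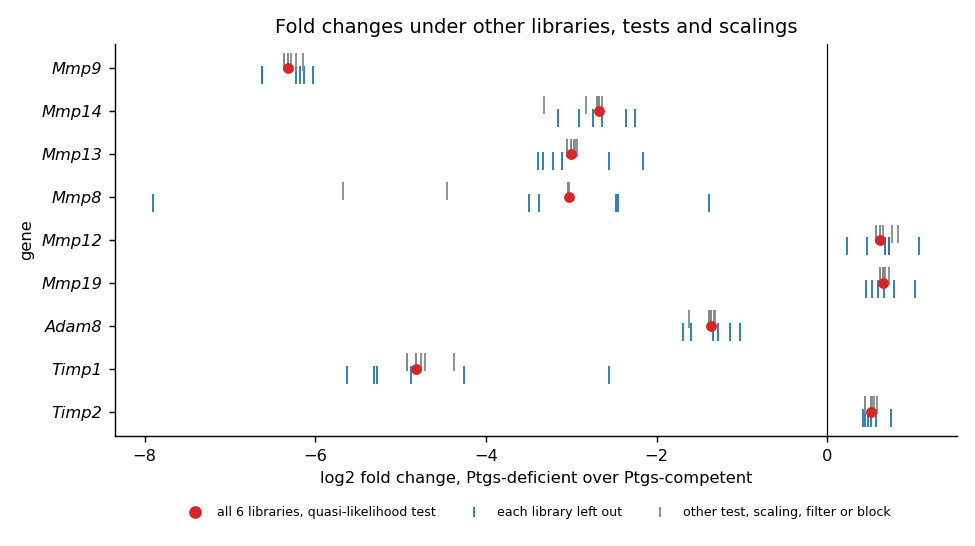
Log2 fold change of the 9 tested genes with all 6 libraries in the quasi-likelihood test (red), with each library left out in turn (blue ticks) and under another test, scaling, filter or replicate block (grey ticks). All stayed on their side of 0, Mmp9 within -6.62 to -6.03, while Mmp8 ran from -7.90 to -1.38 and Timp1 from -5.63 to -2.56.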

How the data were processed

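The deposited table held raw counts per gene for 6 TAM libraries. According to the methods, the authors trimmed reads, aligned them to GRCm38 with STAR and counted them on Ensembl genes with featureCounts. Whether strand was used is not given in the sources used here. No column was left out (0 unused).

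The differential test was edgeR's (version 4.0.16, in R 4.3.3), with filterByExpr at its defaults (minimum count 10, minimum total 15), TMM scaling and the two-sided quasi-likelihood form with Benjamini-Hochberg adjustment over 8793 genes, on all 6 libraries with no covariate. A call needed an adjusted p of 0.05 or less and an absolute log2 change of at least 1.5. The SE given with a log2 change was its absolute value divided by the square root of the quasi-likelihood F statistic. The procedure was tested on simulated data. Alternatives used limma 3.58.1, DESeq2 1.42.0, other scalings, no filter, a replicate block and each library left out. Total counts ran from 4431184 to 8760679 a library, and a floor of 3 counts was used for zeros.

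The members and gene lists were chosen with earlier results of these data known. Named genes were all 10 members and, from each related list, calls or otherwise the 3 tested genes with the smallest p, with further genes named after their values were seen. Of the members, 10 matched by symbol. Positions came from GENCODE M21 (GRCm38) and promoter sequences from RefSeq (GRCm38.p6). Of the related genes, 1 is counted in its list but is not reported here.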

Additional observations from a re-analysis of the deposited data

How the results depend on the processing

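All 9 tested members kept the direction of their log2 change in all 13 alternatives. Mmp9 was called in 11 of the 13; it lost the call without Ptgs-competent replicate 1 and without Ptgs-deficient replicate 1. The number of called members, 1 by the quasi-likelihood test, was 4 by edgeR's likelihood ratio test and with no filter, 3 by DESeq2, voom and the replicate block, and 0 to 1 with a library left out. Over all genes, 19 calls became 241 (likelihood ratio), 328 (DESeq2), 123 (voom), 252 (no filter) and 77 (replicate block), and 0 to 25 with a library left out. The 0 came without Ptgs-competent replicate 1, where 1231 genes had an unadjusted p under 0.05; leaving out Ptgs-competent replicate 2 gave 11, and leaving out Ptgs-deficient replicates 1, 2 and 3 gave 2, 4 and 3. The 0 calls among related protease genes became 1 (likelihood ratio), 3 (DESeq2), 1 (voom) and 1 (no filter). The cause of these shifts was not tested. The median log2 change of all genes was 0.39 under voom and 0.26 with the block. Samples with the same replicate number did not deviate together (correlations of -0.0488, -0.0224 and -0.0218), so the numbers were not treated as pairs. A weak shared batch could go unseen by this check, since libraries correlated at only 0.407 to 0.720 in log2 CPM. The block called Mmp9, Mmp13 and Mmp14. With 3 pools a group, the biological coefficient of variation was 1.26. Among the tested members, SE was largest for Mmp8 (2.25) and Timp1 (1.47). For Timp1, Ptgs-competent counts were 116, 153 and 1194. In log2 CPM, Ptgs-competent replicate 1 correlated at 0.553 and 0.498 with replicates 2 and 3 of its own group. With Ptgs-deficient replicates 1, 2 and 3 it correlated at 0.548, 0.620 and 0.599. Ptgs-deficient libraries correlated at 0.600 to 0.720 with each other.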
